A study of Mus musculus with 5 samples.

Results

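The simple epithelial keratins Krt7, Krt8, Krt18, Krt19, Krt20 and Krt23 were followed in mouse gastric organoids, cell clusters grown in gel from stomach epithelium, and in organoids recovered from tumours. The 6 genes were chosen by name and found through the RefSeq transcript accession of each array probe, and they are 6 of 17583 genes tested. All 6 were on the array, with 1 probe and 1 spot each, and all 6 were well above background on all 5 arrays, so none was lost to the filter on dim signals. The other keratin genes on the array numbered 48, of which 35 were tested.

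Keratins are the intermediate filament proteins of epithelial cells. A type I and a type II keratin pair to form each filament, and single-layered epithelia such as that of the stomach build theirs mainly from the type II keratin Krt8 with the type I keratins Krt18 and Krt19. Krt7 is a further type II keratin of glands and ducts. Krt20 is a type I keratin of differentiated gut cells, found in the upper crypt and villus of the intestine and in the surface cells of the stomach, and Krt23 is a less studied type I keratin of gut and gland epithelia.

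The study set tumour-derived organoids against a reference line, with 1 one-colour array for each of 5 samples. The reference was an organoid line from Trp53flox/flox mice, in which Trp53 is flanked by recombination sites, carrying the pLKO.1 vector with a hairpin against luciferase (shLuc) and harvested before injection under the skin. The other 4 were organoids from subcutaneous tumours, all with Trp53 loss: 2 carried a hairpin against Cdh1, which encodes the adhesion protein E-cadherin (shCdh1 hairpin 1 and hairpin 2), 1 carried Apc580D, a lesion of a Wnt pathway inhibitor, and 1 carried Pik3caH1047R, an activating change in a catalytic subunit of PI3-kinase. Samples are labelled stomach and female, and the same serum-free medium is given for all, with the growth factor EGF at 50 ng/ml, the Wnt agonists R-spondin1 at 250 ng/ml and CHIR-99021 at 2.5 µM, the BMP antagonist Noggin at 100 ng/ml, the Notch ligand Jagged-1 at 1 µM and the ROCK inhibitor Y27632 at 10 µM. Each tumour sample differs from the reference by Trp53 loss, by a second lesion and by growth in a mouse, and these cannot be told apart. The labels give no age and do not say which line a tumour grew from, how recombination was driven, or whether the hairpins came from separate cultures or animals, so p-values measure only how far these samples differ from each other, which may in part be technical.

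Levels are log2 processed signals relative to the 75th percentile of each array, so that 0 is that percentile, and a difference of 1 is 2-fold. The share of spots well above background was 61.8% to 65.3% per array, no spot was saturated, and the number of arrays limits the precision. The control and both shCdh1 samples were on slide 1, and Apc580D and Pik3caH1047R on slide 2. Cdh1, the hairpins' target, gave 4.39 in the control against 0.07 with hairpin 1 and 0.26 with hairpin 2, and Trp53 gave 0.85 in the control against −5.86 to −4.86 in the tumours. Against its label as female, the Pik3caH1047R sample had Xist not well above background (−8.14) and the Y-linked gene Eif2s3y at 1.35, so the tumour comparison is also given without it. Of 18 gastric epithelium markers, 17 or 18 were well above background on each array, among them Cldn18, Gkn3 and Tff1. Fibroblast markers were well above background for 3 of 10 in the control and 3 to 6 in the tumours (summed signal, each marker relative to the 75th percentile, 11.5 and 10.5 to 15.1), leukocyte markers for 5 of 9 and 5 to 7 (11.7 and 16.1 to 21.0), and endothelial markers for 3 of 7 and 3 to 4. Of these lists, Col3a1, Lum, Pdgfrb, Postn, Adgre1, Tyrobp and Tie1 were well above background on no array. Others were: the fibroblast genes Col1a1, Col1a2 and Acta2, the leukocyte genes Cd3e, Cd68, Csf1r and Itgam and the endothelial genes Pecam1 and Vwf on all 5. Acta2 alone (3.51 in the control, 3.36 to 3.91 in the tumours) made up nearly all of the fibroblast sum. Cd68 and Itgam made up most of the leukocyte sum. By mean difference from the control, 6 of 6 fibroblast markers tested were higher in the tumours (median 0.49). So were 6 of 7 leukocyte markers tested (median 0.35), beside 55.4% of all genes tested. The pan-leukocyte gene Ptprc was well above background on 3 arrays (−6.78 in the control, −6.10 to −4.63 in the tumours), the leukocyte gene Laptm5 on 4 (−7.34, and −5.20 to −2.42) and the fibroblast receptor Pdgfra on 2 (−8.18, and −6.87 to −5.09). Emcn, an endothelial sialomucin, was the one marker of these lists past limma's threshold (adjusted p = 0.00788), at −2.54 in the control and −8.30 to −7.99, not well above background, in the tumours. Other endothelial markers did not share that drop: Pecam1 and Vwf differed by −0.002 and 0.05, and Kdr, well above background on 3 arrays, by 2.76. Of 6 endothelial markers tested, 4 were higher in the tumours and 2 lower. The part of these cell types in the keratin results was not tested.

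The windows just upstream of Krt20 and Krt23 are shown because these type I genes are next to each other among protein-coding genes of chromosome 11 and had the largest differences of the 6 genes, in opposite directions. Each window holds the 250 bases before the annotated start, 5′ to 3′ on the gene's own strand, from RefSeq on GRCm38.p6, chr11:99438154-99438403 (minus strand) for Krt20 and chr11:99493121-99493370 (minus strand) for Krt23, with the letters TATAAA, the core of a TATA box, in capitals.
Krt20: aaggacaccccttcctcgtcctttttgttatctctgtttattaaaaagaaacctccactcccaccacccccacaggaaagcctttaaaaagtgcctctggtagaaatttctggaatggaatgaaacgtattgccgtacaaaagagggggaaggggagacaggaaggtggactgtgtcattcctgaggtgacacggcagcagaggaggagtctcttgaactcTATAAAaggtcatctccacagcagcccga
Krt23: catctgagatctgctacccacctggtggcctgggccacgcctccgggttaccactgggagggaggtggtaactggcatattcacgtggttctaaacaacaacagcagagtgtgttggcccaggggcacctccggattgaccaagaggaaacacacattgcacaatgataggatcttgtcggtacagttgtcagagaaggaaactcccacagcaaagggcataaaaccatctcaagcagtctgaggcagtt
Krt20 has TATAAA beginning 29 bases before the start, and none lies in this window of Krt7, Krt8, Krt18 or Krt23. Only these exact letters were searched for a TATA box, so variant forms in the other windows were not assessed. Searched on both strands, TATAAA is in 12.4% of 32851 promoter windows of this length. The letters TTTATNG, as bound by caudal (Cdx) homeodomain factors, occur once in the Krt20 window, on the minus strand and overlapping TATAAA. They are in 9.81% of all windows. On the opposite strand they read CNATAAA, so any TATAAA that follows a C is also a match. The share over all windows therefore does not tell how common such a match is where TATAAA is present. TGANTCA, the AP-1 motif, is in none of the 5 windows and in 6.75% of all. The promoter table matched 5 of the 6 genes and held no entry for Krt19.

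The first comparison asked which of these keratins differed between the 4 tumour-derived samples and the control organoids. Krt20 was higher in all 4 tumours, by 5.17-fold to 50.3-fold. The main filament keratins Krt8, Krt18 and Krt19 stayed within 2-fold of the control on every tumour array, as did Krt7, except that Krt8 with hairpin 2 differed by −1.01 under quantile normalization. Krt23 was lower on every tumour array, by 1.30-fold to 2.23-fold. Of all genes tested, 30.2% were above the control on all 4 tumour arrays and 24.4% below it on all 4. None of the 6 differences passed limma's adjusted p threshold of 0.05, against 0.119% of all genes tested (21 of 17583). Median difference over the 6 genes was −0.03, with 2 higher and 4 lower, beside a median of 0.06 and 55.4% higher over all genes tested. In bulk samples such as these, a lower share of cells with a transcript and less of it per cell cannot be told apart.

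**Figure D1:**
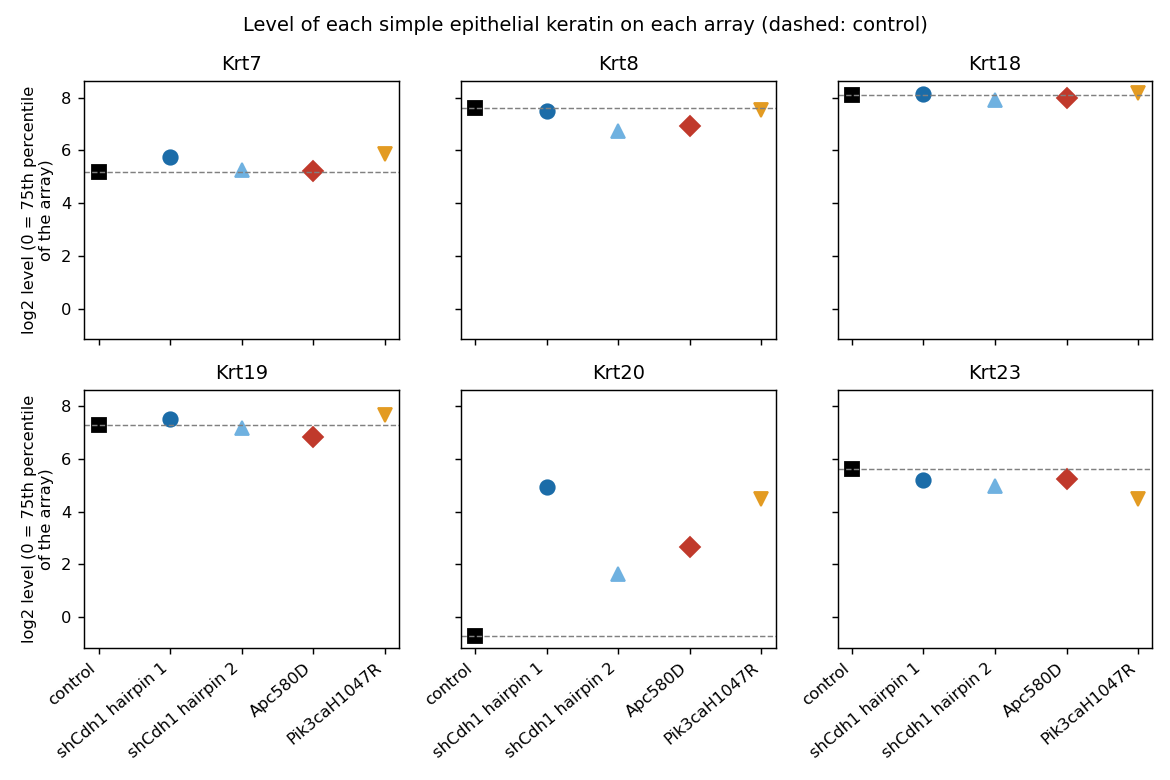
Level of each keratin on each of the 5 arrays. The y axis is the log2 level with 0 at the array's 75th percentile, each symbol is 1 array, and the dashed line is the control. Krt20 spans −0.71 to 4.94, while Krt18 spans 7.90 to 8.18.

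Among type II keratins, Krt8 is the general partner of simple epithelial filaments. The control gave a Krt8 log2 level of 7.61, hairpin 1 gave 7.50, hairpin 2 gave 6.75, Apc580D 6.93 and Pik3caH1047R 7.53. The control was thus the highest of the 5, hairpin 1 and Pik3caH1047R lay 0.10 and 0.08 below it, and hairpin 2 and Apc580D lay 1.82-fold and 1.60-fold below. The mean difference of the tumours was −0.43 ± 0.40 (SE; 4 arrays against 1; 95% interval −1.46 to 0.60; limma adjusted p = 0.687), and ranged from −0.55 without Pik3caH1047R to −0.29 without hairpin 2. All 4 tumour arrays lay below the control, as they did for 24.4% of all genes tested.

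Krt7, the type II keratin of ducts and glands, gave 5.17 for the control, 5.73 for hairpin 1, 5.26 for hairpin 2, 5.21 for Apc580D and 5.86 for Pik3caH1047R. Again hairpin 1 and Pik3caH1047R stood above the other tumours, here 1.47-fold and 1.61-fold above the control, while hairpin 2 and Apc580D were 1.07-fold and 1.03-fold above it. The mean difference was 0.34 ± 0.35 (95% interval −0.55 to 1.24; limma adjusted p = 0.709), and ranged from 0.23 without Pik3caH1047R to 0.45 without Apc580D. All 4 tumours were above the control, as for 30.2% of all genes tested, but with each array scaled to its median in place of the 75th percentile, hairpin 2 and Apc580D were below it by 0.04 and 0.18.

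Among type I keratins, Krt18, the usual partner of Krt8 and its neighbour on chromosome 15, varied least of the 6, with log2 levels of 8.11 (control), 8.12 (hairpin 1), 7.90 (hairpin 2), 7.97 (Apc580D) and 8.18 (Pik3caH1047R). 2 tumours lay above the control and 2 below. The mean difference was −0.07 ± 0.22 (95% interval −0.64 to 0.51; limma adjusted p = 0.922), and ranged from −0.11 without Pik3caH1047R to −0.02 without hairpin 2 (−0.04 without Apc580D). A share of 94.4% of the 14584 genes well above background on all 5 arrays had a range over the arrays at least as wide. Its spots were 6240 to 8280 times the local background, and the brightest member signal, 298088 units, was under the software's saturation value of 776701 for that array.

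Krt19, the smallest keratin and a filament partner in ducts and glands, gave 7.29 for the control, 7.50 for hairpin 1, 7.16 for hairpin 2, 6.83 for Apc580D and 7.65 for Pik3caH1047R. The control lay inside the range of the tumours. The mean difference was −0.0007 ± 0.37 (95% interval −0.96 to 0.96; limma adjusted p = 1.00). Its sign turned with the arrays used, from −0.12 without Pik3caH1047R to 0.15 without Apc580D. The spread between tumours was itself 1.76-fold, from Apc580D to Pik3caH1047R (difference 0.82 ± 0.37; 95% interval −0.36 to 1.99; limma adjusted p = 0.930). In Pik3caH1047R against Apc580D, 1 array each, 6.16% of genes tested had an unadjusted p under 0.05, 5.61% were at least 2-fold higher and 8.45% at least 2-fold lower.

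Krt20, the keratin of differentiated gut cells, had the widest spread. Its log2 levels were −0.71 (control), 4.94 (hairpin 1), 1.66 (hairpin 2), 2.65 (Apc580D) and 4.50 (Pik3caH1047R), from processed signals of 645, 27587, 3207, 6992 and 23195 units in the same order. The control signal was still 17.4 times its local background. Every tumour array was above the control, by 50.3-fold with hairpin 1, 37.0-fold in Pik3caH1047R, 10.3-fold in Apc580D and 5.17-fold with hairpin 2, so hairpin 1 and Pik3caH1047R were again the highest of the tumours. The mean difference was 4.15 ± 1.36, or 17.7-fold (95% interval 0.64 to 7.66; unadjusted p = 0.029 and adjusted p = 0.329 in limma). An unadjusted p under 0.05 was reached by 13.3% of genes tested, and 9.88% were at least 2-fold higher. All 4 tumour arrays were above the control for 30.2%. Of the 14584 genes well above background on every array, 0.315% differed as much in either direction and 0.425% had as wide a range. Without hairpin 1, hairpin 2, Apc580D or Pik3caH1047R the difference was 3.65, 4.74, 4.41 or 3.79, and the adjusted p lay between 0.353 and 0.480 when 1 array was left out in turn.

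Krt23, the neighbour of Krt20, gave 5.62 for the control, 5.22 for hairpin 1, 4.97 for hairpin 2, 5.25 for Apc580D and 4.46 for Pik3caH1047R. All 4 tumours were below the control, as for 24.4% of all genes tested, and the Pik3caH1047R sample was the lowest, at 2.23-fold below. The mean difference was −0.65 ± 0.37 (95% interval −1.60 to 0.31; limma adjusted p = 0.516), and ranged from −0.74 without Apc580D to −0.48 without Pik3caH1047R. The mean difference of Krt23 was 1.57-fold, short of 2-fold, and 6.98% of genes tested were at least 2-fold lower. Of the 14584 genes well above background on every array, 22.7% differed as much in either direction and 22.8% had as wide a range. Krt23 was the exception to the order seen in the other 5 keratins, since its highest tumour arrays were Apc580D and hairpin 1.

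**Figure D2:**
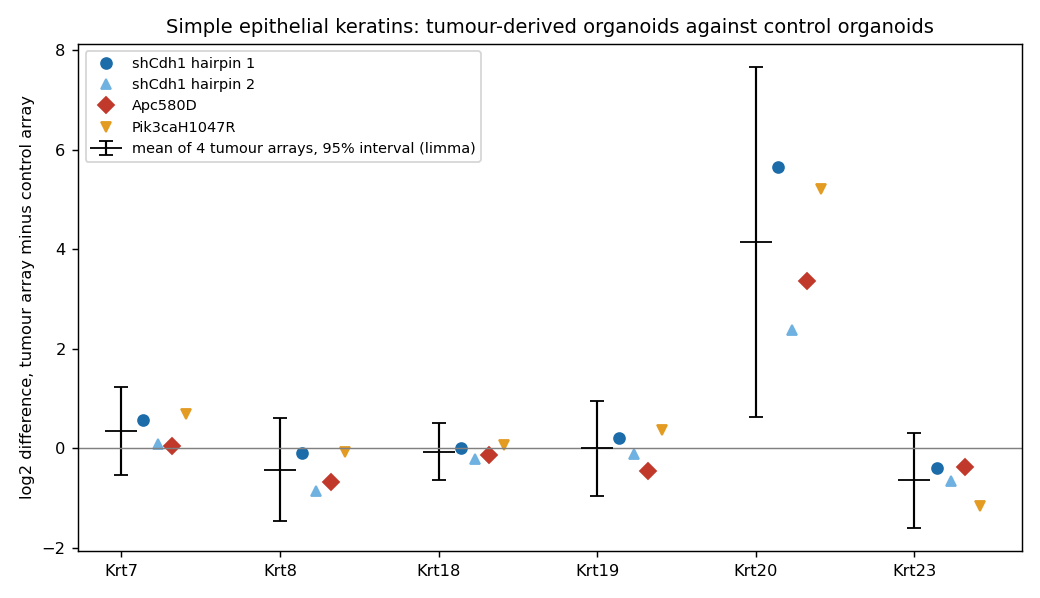
Log2 difference of each tumour array from the control array for the 6 keratins. Coloured symbols are single arrays, and the black bar with whiskers is the mean of the 4 tumours with its 95% interval from limma. The interval for Krt20 runs from 0.64 to 7.66, and those of the other 5 genes cross 0.

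**Figure D3:**
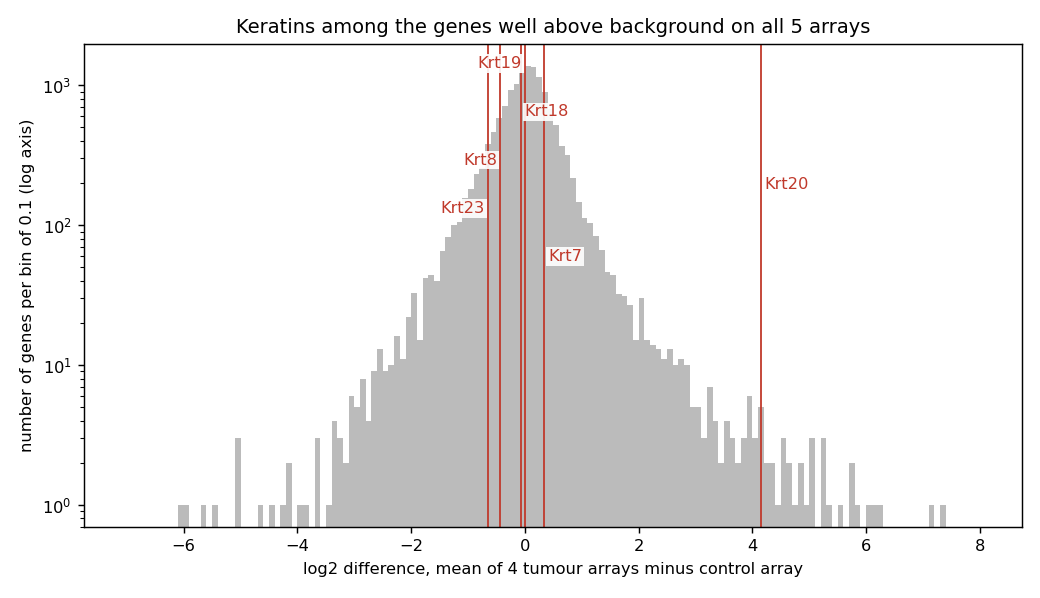
Histogram of the log2 difference, mean of the 4 tumour arrays minus the control, over the 14584 genes well above background on all 5 arrays, with the number of genes per bin on a log axis. Red lines mark the keratins: Krt20 at 4.15 lies in the right tail and the other 5 between −0.65 and 0.34.

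The second group of comparisons asked how the keratins stood in each genotype, in a fit with 1 mean per genotype. Only the pair of hairpins gives a gene's own spread there, and limma combines it with the spread over all genes. With the mean of both shCdh1 samples against the control, all 3 on slide 1, Krt20 differed by 4.01 ± 1.67 (2 arrays against 1; 95% interval −1.35 to 9.37; limma adjusted p = 0.546), Krt8 by −0.48 ± 0.47, Krt23 by −0.53 ± 0.30, Krt7 by 0.33 ± 0.36, Krt18 by −0.10 ± 0.29 and Krt19 by 0.05 ± 0.32. The tumour comparison with slide as a block gives the same differences, with Krt20 at adjusted p = 0.516, since the control is on slide 1. Of all genes tested, 0% passed in limma in any of the genotype comparisons, 9.74% had an unadjusted p under 0.05 for shCdh1 against the control, 8.95% were at least 2-fold higher and 7.51% at least 2-fold lower. Cdh1 lay at 0.07 and 0.26 with the hairpins, which differed 9.74-fold in Krt20, a gap that 0.425% of genes well above background on all arrays reached, and 1.69-fold in Krt8.

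In Apc580D, 1 array against 1, Krt20 was 3.36 ± 1.93 above the control (95% interval −2.83 to 9.55; limma adjusted p = 0.727). The filament keratins Krt8 and Krt19 were 0.68 and 0.46 below it, Krt23 0.37 and Krt18 0.14 below, and Krt7 0.04 above. Of all genes tested, 9.02% had an unadjusted p under 0.05, 11.3% were at least 2-fold higher and 6.49% at least 2-fold lower.

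In Pik3caH1047R, 1 array against 1, Krt20 was 5.21 ± 1.93 above the control (95% interval −0.98 to 11.4; limma adjusted p = 0.462), and 12.1% of genes tested were at least 2-fold higher. An unadjusted p under 0.05 was reached by 11.5% of genes. Krt23 differed by −1.16 ± 0.34 (95% interval −2.25 to −0.06; unadjusted p = 0.044, adjusted p = 0.422 in limma), and 10% of genes tested were at least 2-fold lower. Krt7 was 0.69 and Krt19 0.36 above the control, Krt18 was 0.07 above it and Krt8 0.08 below. The comparisons with the control share that single array, so they are set side by side and not correlated. Pik3caH1047R also differed from the control in Xist (−8.14 against −0.90) and Eif2s3y (1.35 against −7.36), which cannot be told apart from genotype here.

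Whether the keratins followed E-cadherin was asked by setting the shCdh1 tumours against Apc580D and Pik3caH1047R, which kept Cdh1 at 4.48 and 4.58, without use of the control. None of the 6 passed the threshold. Krt20 differed by −0.27 ± 1.37 (2 arrays against 2; 95% interval −4.65 to 4.10; limma adjusted p = 0.990), Krt8 by −0.10 ± 0.38, Krt18 by −0.07 ± 0.24, Krt19 by 0.09 ± 0.26, Krt7 by −0.04 ± 0.29 and Krt23 by 0.24 ± 0.24. Intervals for the filament keratins Krt8, Krt18 and Krt19 ran from −1.32 to 1.12, from −0.82 to 0.69 and from −0.74 to 0.92, so differences of that size in either direction are not excluded. Of all genes tested, 6.03% had an unadjusted p under 0.05, 2.51% were at least 2-fold higher and 6.42% at least 2-fold lower. Slide 1 holds one side and slide 2 the other, so slide and genotype cannot be told apart here. Pik3caH1047R also differed from the shCdh1 samples in Xist (−8.14 against −0.83 and −0.82) and Eif2s3y (1.35 against −7.95 and −8.00). That difference too cannot be told apart from genotype.

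Hairpin 1 and Pik3caH1047R were the highest tumour arrays for 5 of the 6 keratins, Krt7, Krt8, Krt18, Krt19 and Krt20, an order noticed after the values were seen. The same arrays were highest for 21.9% of all genes tested, 10 of 35 other keratins, 7 of 19 desmosome and keratin linker genes, 3 of 9 turnover genes, 2 of 10 squamous markers, 2 of 18 gastric markers and 1 of 15 other intermediate filament genes. With quantile normalization the order held for 4 of the 6, Krt18 dropping out, and with normexp or median scaling for 5. The arrays concerned lie on different slides and carry different lesions. Among 8 tested intestinal epithelium markers the order held for 6: Cdx2, Vil1, Cdh17, Fabp2, Lgals4 and Muc2.

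Krt20 is a marker of intestinal and of gastric surface differentiation, so both marker lists are set beside it. Cdx2, the caudal transcription factor that specifies intestine, gave −0.70 for the control, 1.03 for hairpin 1, −0.86 for hairpin 2, −1.56 for Apc580D and 1.89 for Pik3caH1047R. Its relative Cdx1, known to activate human KRT20, gave −4.69 for the control and −4.80 to −4.07 over the tumours. Cdh17, the intestinal cadherin, was not well above background in the control (−7.12) and was at −1.79, −5.49, −3.86 and 0.87 in hairpin 1, hairpin 2, Apc580D and Pik3caH1047R. Cdx2 was above the control with hairpin 1 and in Pik3caH1047R and below it with hairpin 2 and in Apc580D. Krt20 was above the control in all 4 tumours. The part of Cdx factors in the Krt20 result was not tested. The whole intestinal list had 6 of 10 markers well above background in the control and 7 to 8 in the tumours, with Alpi and Sis on no array. Its summed signal was 133 in the control, 153, 55.1 and 61.9 in hairpin 1, hairpin 2 and Apc580D, and 184 in Pik3caH1047R. Most of that sum was Lgals4 alone, at 6.83 in the control and 7.10, 5.43, 5.66 and 7.33 in the tumours in the same order. Over the 8 intestinal markers tested, 5 were higher and 3 lower (62.5% higher, beside 55.4% over all genes tested), and the median difference was 0.40. In limma 0 of the 8 passed and 1 had an unadjusted p under 0.05, beside 13.3% of all genes tested. Fabp2, the fatty acid carrier of absorptive cells, was lower on all 4 tumour arrays (−2.02 ± 0.73; adjusted p = 0.355), as were 24.4% of all genes tested. The goblet cell mucin Muc2 and the galectin Lgals4 differed by 0.56 ± 0.78 and −0.46 ± 0.87.

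Most gastric epithelium markers were lower in the tumours. Of 18 tested, 15 were lower and 3 higher (16.7% higher, beside 55.4% over all genes tested), with a median difference of −0.95. In limma 0 of the 18 passed and 3 had an unadjusted p under 0.05, beside 13.3% of all genes tested. The largest differences among these markers were in the intrinsic factor gene Cblif (−4.41), the surface antigen Psca (−3.39), pepsinogen C, Pgc (−3.33), and the surface cell gene Gkn2 (−1.52). Tff1, the trefoil peptide of surface mucous cells, differed by −1.51 and was below the control on all 4 tumour arrays, at 6.96, 5.13, 6.31 and 5.58 against 7.51. The summed gastric signal was 498 in the control and 200 to 346 in the tumours. Their part in the Krt20 result was not tested.

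**Figure D4:**
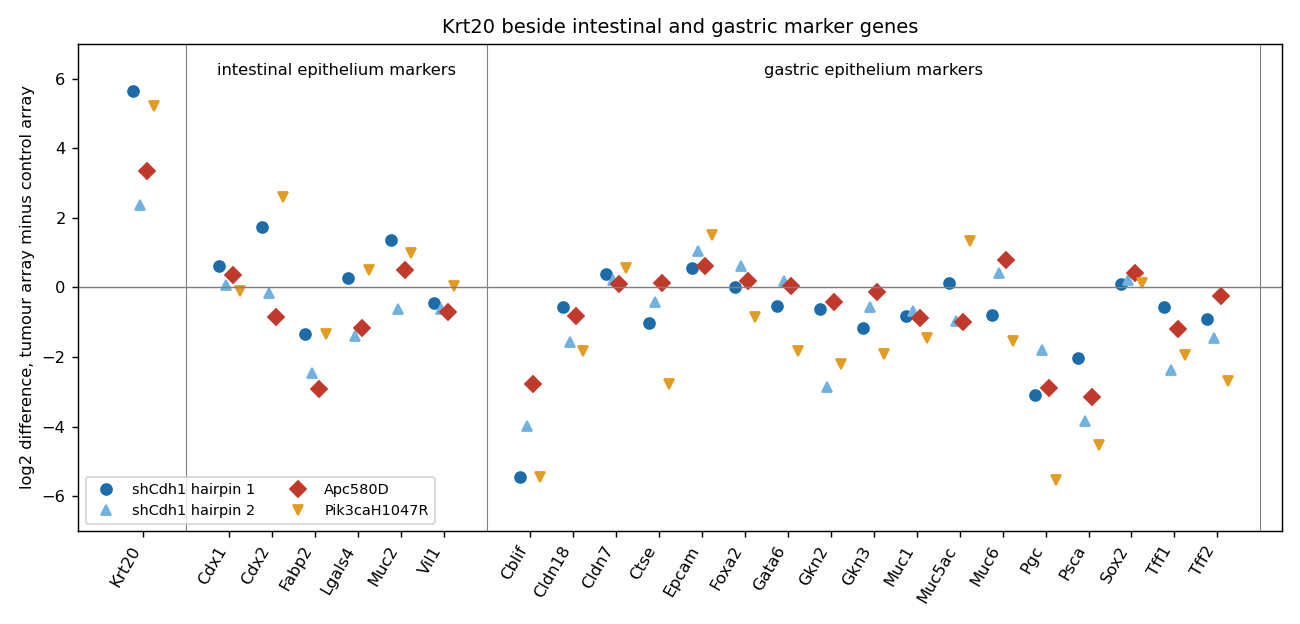
Log2 difference of each tumour array from the control array for Krt20 and for the intestinal (6) and gastric (17) marker genes well above background on all 5 arrays. Krt20 is above the control in every tumour, Cdx2 in 2 of 4, and Cblif, Pgc and Psca are below it in every tumour.

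The genes whose profile over the 5 arrays was most like a keratin's were sought for keratins that spanned at least 1 log2 unit, which only Krt20 and Krt23 did. Likeness was the root mean square difference of gene-centred log2 levels over 5 arrays, among 13312 other genes, those well above background on all of them less genes with clone-type or Gm names. For Krt20 the nearest were the C-type lectin Clec2f (0.81), the inducible heat shock gene Hspa1a (0.84) and Nefl, the neurofilament light chain (0.92). Hspa1a gave −0.18 for the control, then 3.23 (hairpin 1), 1.65 (hairpin 2), 2.60 (Apc580D) and 3.25 (Pik3caH1047R). For Krt23 they were Tcea2, a transcription elongation factor, at 0.02, the histone demethylase Kdm1b at 0.06 and the transcription factor Prdm16 at 0.06. The nearest genes to Krt20 thus differed from it by more than those nearest to Krt23, whose own range was smaller.

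Other keratins are mostly those of stratified epithelia and hair. Of 35 tested, 22 were higher and 13 lower in the tumours (62.9% higher, beside 55.4% over all genes tested), with a median difference of 0.13. In limma 0 of the 35 passed and 3 had an unadjusted p under 0.05, beside 13.3% of all genes tested. The highest differences were in the basal keratin Krt14 (2.15 ± 1.44), Krt90 and the oral and oesophageal keratin Krt13 (1.51 ± 0.97), and the lowest in the basal keratin Krt15 (−2.03 ± 1.05), the hair keratin Krt33a (−1.80 ± 0.49) and the basal keratin Krt5 (−1.59 ± 0.57), the partner of Krt14. Krt90 was well above background on 1 array and Krt13 and Krt15 on 3 each, so their differences rest partly on signals near background. Krt14 gave −4.83 for the control, −4.07 for hairpin 1, −3.87 for hairpin 2, −2.24 for Apc580D and −0.54 for Pik3caH1047R. So all 4 tumours lay above the control, as for 30.2% of all genes tested, with adjusted p = 0.574 in limma. Krt42, named after its values were seen, lay well above the 75th percentile on every array, from 5.03 in Apc580D to 5.84 in Pik3caH1047R. Squamous epithelium markers, some of them these keratins, were well above background for 9 of 12 in the control and 8 to 10 in the tumours, with a summed signal of 32.7 and 24.8 to 40.4, and 10 tested markers had a median difference of 0.58 (6 higher, 4 lower), with Lor, of the cornified envelope, at 1.68 ± 0.74 and the stress keratin Krt6a at 1.18 ± 1.04. Most of the squamous sum was Sfn alone, at 4.86 in the control and 4.27 to 5.03 in the tumours. Probe sequences were not used here, so cross-hybridisation between keratins was not checked.

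Genes that anchor keratin filaments at desmosomes and hemidesmosomes or link them to other structures differed in both directions. Of 19 tested, 8 were higher and 11 lower (42.1% higher, beside 55.4% over all genes tested), and the median was −0.20. In limma 0 of the 19 passed and 3 had an unadjusted p under 0.05, beside 13.3% of all genes tested. The desmosomal plaque gene Pkp1 was 7.17-fold higher (2.84 ± 0.85, adjusted p = 0.302), from −1.92 in the control to −0.02 with hairpin 1, 0.74 with hairpin 2 and in Apc580D, and 2.24 in Pik3caH1047R. Epiplakin, Eppk1, a keratin-binding plakin, was at −1.16 ± 0.27 (adjusted p = 0.249), the hemidesmosome integrin Itgb4 at −1.13 ± 0.22 (0.226) and desmocollin Dsc2 at −0.74 ± 0.34 (0.430). Each was lower on all 4 tumour arrays, as were 24.4% of all genes tested. Desmoplakin, Dsp, which ties keratins to desmosomes, and plectin, Plec, a general linker, differed by −0.19 ± 0.33 and −0.26 ± 0.27.

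Other intermediate filament genes, such as those of mesenchymal and neural cells and the nuclear lamina, were higher for 12 of 15 with a median of 0.44. This was 80% higher, beside 55.4% over all genes tested. In limma 0 of the 15 passed and 1 had an unadjusted p under 0.05, beside 13.3% of all genes tested. The neurofilament gene Nefl was at 2.51 ± 1.22, nestin, Nes, at 2.21 ± 1.30, synemin, Synm, at −2.00 ± 0.20 (adjusted p = 0.0931) and vimentin, Vim, the mesenchymal filament protein, at 1.98 ± 1.43. Synm gave −2.11 for the control and −4.22 to −4.08 over the tumours, the narrowest tumour range of these 4 genes. Vim gave −5.20 for the control, −4.44 for hairpin 1, −4.70 for hairpin 2, −1.32 for Apc580D and −2.43 for Pik3caH1047R. It was thus highest in the 2 tumours without a Cdh1 hairpin, both on slide 2, on levels that were below the 75th percentile everywhere.

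Genes of keratin turnover and chaperoning were higher for 5 of 9 and lower for 4 (55.6% higher, beside 55.4% over all genes tested), with a median of 0.05. In limma 0 of the 9 passed and 1 had an unadjusted p under 0.05, beside 13.3% of all genes tested. Hspb1, the small heat shock protein that binds keratin filaments, was 10.0-fold higher (3.32 ± 1.00, adjusted p = 0.303), from −0.60 in the control to 2.00 and 1.58 with hairpins 1 and 2, 3.31 in Apc580D and 3.98 in Pik3caH1047R. All 4 tumour arrays lay above the control for Hspb1, as for 30.2% of all genes tested. The ubiquitin ligase Trim21 was at −0.53 ± 0.68 and the 14-3-3 gene Ywhaz, of a family that binds phosphorylated Krt18, at 0.22 ± 0.43.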

How the data were processed

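Gene expression was measured on 5 one-colour Agilent mouse arrays, 1 per sample. Per the labels' protocols, RNA (0.2 µg) was labelled with Cy3, and the software, per the submitters' processing notes, was Agilent Feature Extraction 11.0.1.1. Each spot's processed signal in the scanner files the authors deposited is an intensity with background already subtracted; median spot and local background intensity stand beside it. A second set of values from the authors, deposited as a table, is in log2 units. Its differences from the control matched the scanner values with a slope of 1, so direction and scale are known, but the baseline subtracted per probe is not (column medians −0.06 in the control, 0.07 and 0.03 in hairpins 1 and 2, −0.08 in Apc580D, 0.02 in Pik3caH1047R).

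Each array's log2 processed signal was reduced by its 75th percentile over 59305 non-control spots. Control and outlier spots (78 to 114 per array) were left out. Probes were named through accessions in a RefSeq table of GRCm38.p6, used for names (34549 of 56573 probes). The brightest probe stood for a gene, and genes well above background on any array went into limma (version 3.58.1, R 4.3.3; lmFit and eBayes, two-sided, Benjamini-Hochberg over 17583 genes, threshold 0.05), checked on simulated data. The tumour fit has 3 residual degrees of freedom, the lone control being assumed to vary like the tumours, and the genotype fit has 1. Because eBayes adds a spread estimated over all genes, the total degrees of freedom are 4.94 and 2.97. Errors are standard errors. The software's own error was 10% of signal for each keratin spot. Genes named were all 6 keratins, their 3 nearest profiles, the 3 highest and lowest other keratins and up to 4 of each list, taking the largest differences where every array was well above background. Cdx1, Cdh17, Tff1, Dsp, Plec and Krt42 were added after values were seen, and 1 gene that the rule names is not reported here. The keratins and lists were chosen with earlier results of these data known. Normalization, background, filter, slide, probe choice and each array were varied.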

Additional observations from a re-analysis of the deposited data

Results flagged for a closer look

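Krt18 and Krt19 stood on opposite sides of the control in Apc580D and Pik3caH1047R, 1 array each. Krt18 was 0.14 below the control in Apc580D and 0.07 above it in Pik3caH1047R, a difference of 0.21 ± 0.33 (limma adjusted p = 0.970 for Pik3caH1047R against Apc580D), and with quantile normalization or median scaling both lay below. Krt19 was 0.46 below and 0.36 above, a difference of 0.82 ± 0.37 (adjusted p = 0.930). Both arrays lie on slide 2, but they also differ in Xist (−0.69 in Apc580D, −8.14 in Pik3caH1047R). Neither keratin difference passed the threshold, and their cause was not tested. No tumour array stood apart from the other 3 for any of the 6 keratins by Dixon's ratio, which was highest for Krt23 at 0.64, under its critical value.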

How the results depend on the processing

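Across 15 alternatives for the tumours against the control and 9 to 12 for each genotype comparison, 322 of 336 values for the 6 keratins kept their direction and stayed short of the threshold, 0 passed it and 14 turned their sign. All 14 concern differences near 0 in Krt19, Krt18 and Krt7. Krt19, tumours against control, turned to 0.034 with normexp, to 0.046 with slide as a block or only slide 1, and ranged from −0.12 to 0.15 with 1 array left out in turn. Krt19 turned for shCdh1 against the control with quantile normalization (−0.085) and median scaling (−0.077), and for shCdh1 against the other tumours with normexp (−0.0084) and quantile (−0.060). Krt18 in Pik3caH1047R turned with quantile (−0.012) and median scaling (−0.040). Krt7 in Apc580D turned with median scaling (−0.18) and with the authors' deposited table (−0.0097), and Krt7 for shCdh1 against the other tumours with median scaling (0.0041). Median scaling in place of the 75th percentile shifts all genes of an array by the same amount. In Apc580D against the control, Krt7 went from 0.04 to −0.18, Krt8 from −0.68 to −0.90 and the median of all genes from −0.01 to −0.23. For the tumours that median went from 0.06 to −0.08. The cause of the turns under the other settings was not tested. For the tumours against the control, Krt20 kept a difference of 3.65 to 4.74, with adjusted p from 0.244 to 0.546, and Krt23 of −0.79 to −0.48 (0.424 to 0.701). Krt20 lay at 3.72 to 4.01 for shCdh1, 3.14 to 3.40 for Apc580D and 4.99 to 5.21 for Pik3caH1047R against the control, and at −0.37 to −0.23 for shCdh1 against the other tumours. The number of genes past the threshold, 21, became 48 with normexp, 49 with dim signals raised to a floor, 7 with only genes well above background on all 5 arrays, 0 with slide as a block or only slide 1, and 0 to 19 with 1 array left out in turn (0 without hairpin 1, hairpin 2 or Pik3caH1047R, 19 without Apc580D). Comparisons with shCdh1 could not be fitted without 1 hairpin, which leaves no residual degrees of freedom. No paired analysis was possible because each group but shCdh1 has 1 array, so no 2 numbers are shared.

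With 1 control array, its own spread is not measured, and limma's calls rest on the tumours' spread combined with the spread over all genes. Low signal does not limit these keratins, whose spots were all at least 17.4 times the local background. No keratin spot was flagged as saturated, but whether bright signals were compressed was not tested.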
